A study of Mus musculus with 10 samples.

Results

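The G1/S cyclins, cyclin-dependent kinases (CDKs) and CDK inhibitors described here are 10 genes: the D-type cyclin genes Ccnd1, Ccnd2 and Ccnd3, the E-type cyclin genes Ccne1 and Ccne2, the kinase genes Cdk2, Cdk4 and Cdk6, and the inhibitor genes Cdkn1b and Cdkn2c. The other Cip/Kip and Ink4 inhibitor genes, Cdkn1a, Cdkn1c, Cdkn2a, Cdkn2b and Cdkn2d, are outside the set. The members were taken by gene symbol and not by a cut on measured values, although earlier results of these data were known. Each symbol matched 1 locus among the 23535 loci with values, and all 10 were among the 10956 loci tested. RNA was from frozen mouse liver of mixed C57/B6 and 129 strain at postnatal day 90, collected 40 h after a partial hepatectomy that removed most of the organ. WT mice carried floxed Arid1a alleles (Arid1a Fl/Fl) without Cre and KO mice carried the same alleles with Alb-cre, with 3 libraries of each genotype. Alb-cre is driven by the albumin promoter, so Arid1a, a subunit gene of the SWI/SNF chromatin remodelling complex, is deleted mainly in hepatocytes and other cells of the albumin-expressing lineage. The 4 pre-hepatectomy libraries were not analysed here, and the values describe regenerating liver alone.

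D-type cyclins are made in response to growth factors and bind Cdk4 or Cdk6. These complexes phosphorylate the retinoblastoma protein, which then releases E2F transcription factors, and E2F switches on the E-type cyclins that act through Cdk2 to start DNA synthesis. The Cip/Kip inhibitor p27, from Cdkn1b, binds cyclin-CDK complexes, and the Ink4 inhibitor p18, from Cdkn2c, binds Cdk4 and Cdk6. Hepatocytes rest outside the cycle until hepatectomy brings them into G1, and cyclin D1 is the best known marker of their passage through it.

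The bases upstream of 4 of these genes are shown because Ccne1, Cdk2 and Cdkn2c are known targets of E2F, the step between the D-type and the E-type cyclins, and because Cdk4 is a textbook target of Myc, whose values are given further on. Each is the run of 250 bases before a RefSeq start site on GRCm38.p6, read 5′ to 3′ on the strand of the gene. Capitals mark 4 E2F-type sites (TTTCGCGC, TTTGGCGC, TTTCCCGC and TTTGCCGC), the shorter core TCCCGC, which lies inside the third of them, and the E box CACGTG bound by Myc, all searched on both strands, so that a site on the other strand reads as its reverse complement. The windows are chr7:38107491-38107740 for Ccne1, chr10:128705052-128705301 for Cdk2 and chr4:109666757-109667006 for Cdkn2c, these 3 on the minus strand, and chr10:127063285-127063534 on the plus strand for Cdk4.
Ccne1: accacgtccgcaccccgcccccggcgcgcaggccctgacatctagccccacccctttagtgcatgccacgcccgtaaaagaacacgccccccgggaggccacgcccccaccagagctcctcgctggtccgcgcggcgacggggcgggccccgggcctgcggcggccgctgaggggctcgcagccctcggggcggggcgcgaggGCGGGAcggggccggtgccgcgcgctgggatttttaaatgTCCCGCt
Cdk2: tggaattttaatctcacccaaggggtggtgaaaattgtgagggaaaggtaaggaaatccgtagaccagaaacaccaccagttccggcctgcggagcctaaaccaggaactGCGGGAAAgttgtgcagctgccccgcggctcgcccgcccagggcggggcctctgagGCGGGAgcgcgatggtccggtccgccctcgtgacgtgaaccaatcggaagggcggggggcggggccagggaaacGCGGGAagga
Cdkn2c: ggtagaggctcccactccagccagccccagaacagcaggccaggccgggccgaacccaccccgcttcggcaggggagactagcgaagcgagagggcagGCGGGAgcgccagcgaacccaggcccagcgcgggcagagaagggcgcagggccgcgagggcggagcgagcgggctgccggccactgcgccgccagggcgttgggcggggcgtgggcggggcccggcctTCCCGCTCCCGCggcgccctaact
Cdk4: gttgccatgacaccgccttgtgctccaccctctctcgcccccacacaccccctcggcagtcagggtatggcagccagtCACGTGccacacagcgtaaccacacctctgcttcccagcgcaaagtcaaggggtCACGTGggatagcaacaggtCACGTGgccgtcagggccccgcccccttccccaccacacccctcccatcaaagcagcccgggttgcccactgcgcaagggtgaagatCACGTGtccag

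The Ccne1 window held the core TCCCGC 47 and 7 bases before the start and none of the longer sites. Cdk2 held TTTCCCGC 140 bases before the start and 2 further cores, at 84 and 10 bases. The bases just after this start were not found in a reference transcript of Cdk2, unlike those of the other windows. Its distances are therefore less certain. Any of the 4 longer sites was found in 1.86% of the 32851 mouse windows of this length, and the core in 16.9%. The Cdkn2c window held the core at 152, 24 and 18 bases, but it belongs to a start site outside the deposited locus. On the minus strand that locus starts at its highest position, 109665372. The window directly before this position, chr4:109665373-109665622, held no motif. Cdk4 held CACGTG 4 times, at 172, 118, 98 and 11 bases. Of all windows 6.02% held it at all and 0.0213% held it 4 times or more. This Cdk4 start site also lies outside the deposited locus, since the window ends at 127063534 and the locus starts at 127063603. The same holds for Cdk6, with 3343892 and 3344312. Of the 10 genes 7 had a window, and among those not shown Cdk6 held 1 core and 1 E box, while Ccnd3 and Cdkn1b held no motif. A match describes the letters and not a bound factor.

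Arid1a, the targeted gene, was checked first. The WT libraries had 8.68, 8.45 and 8.49 FPKM (fragments per kilobase, scaled to the mapped fragments of the library) and the KO libraries 4.41, 5.57 and 6.15, in replicate order as everywhere here, and every KO library was below every WT library (limma adjusted p = 0.207). The hepatocyte markers Alb, Apoa1, Ttr, Cps1, Hnf4a and Serpina1c were abundant and summed to 33421 to 39831 FPKM (WT) and 30322 to 39679 FPKM (KO). Over all loci 13 passed an adjusted p of 0.05 in limma, 0.119% of those tested, with 2 higher in KO (0.0183%) and 11 lower. After median-of-ratios rescaling 0 were higher and 13 lower, and after quantile normalization 0 and 14. KO minus WT differences are given on the log2(FPKM + 1) scale, and their median over all tested loci was 0.15, against 0.01 once libraries were rescaled by median-of-ratios, so a difference of 0.15 is the level of the whole table. The labels do not say that libraries came from separate mice, and p-values therefore measure the spread between libraries, which may be technical.

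None of the 10 G1/S genes passed the threshold (limma adjusted p from 0.210 to 0.491). At an unadjusted p under 0.05 there were 4, Ccnd1, Ccnd2, Ccne1 and Ccne2, all higher in KO; 15.2% of all tested loci had such a p, and 11.2% had it with a higher value in KO. All 10 differences were above 0, as were those of 69.7% of loci, and all 10 were above the median of all loci, where 50% of loci lie by construction. The median over the 10 genes was 0.54. For the 3 D-type cyclins and Ccne1 every KO library was above every WT library, as for 16.7% of loci.

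Rescaling lowered these counts. After median-of-ratios rescaling Ccnd2 and Ccne1 still had no overlap between genotypes (7.87% of loci), and Ccne1 alone had an unadjusted p under 0.05 with a higher value in KO (5.36% of loci). After quantile normalization Ccnd1, Ccnd2 and Ccne1 had no overlap (7.5% of loci) and Ccne1 alone such a p (5.06% of loci). Without KO replicate 2 the KO values were all above the WT values for 7 of the 10 genes (27.8% of loci) and 6 had an unadjusted p under 0.05 with a higher value in KO (13.3% of loci). Without WT replicate 3 there were 9 genes without overlap (28.5% of loci) and 5 with such a p and a higher value in KO (11.4% of loci).

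**Figure D1:**
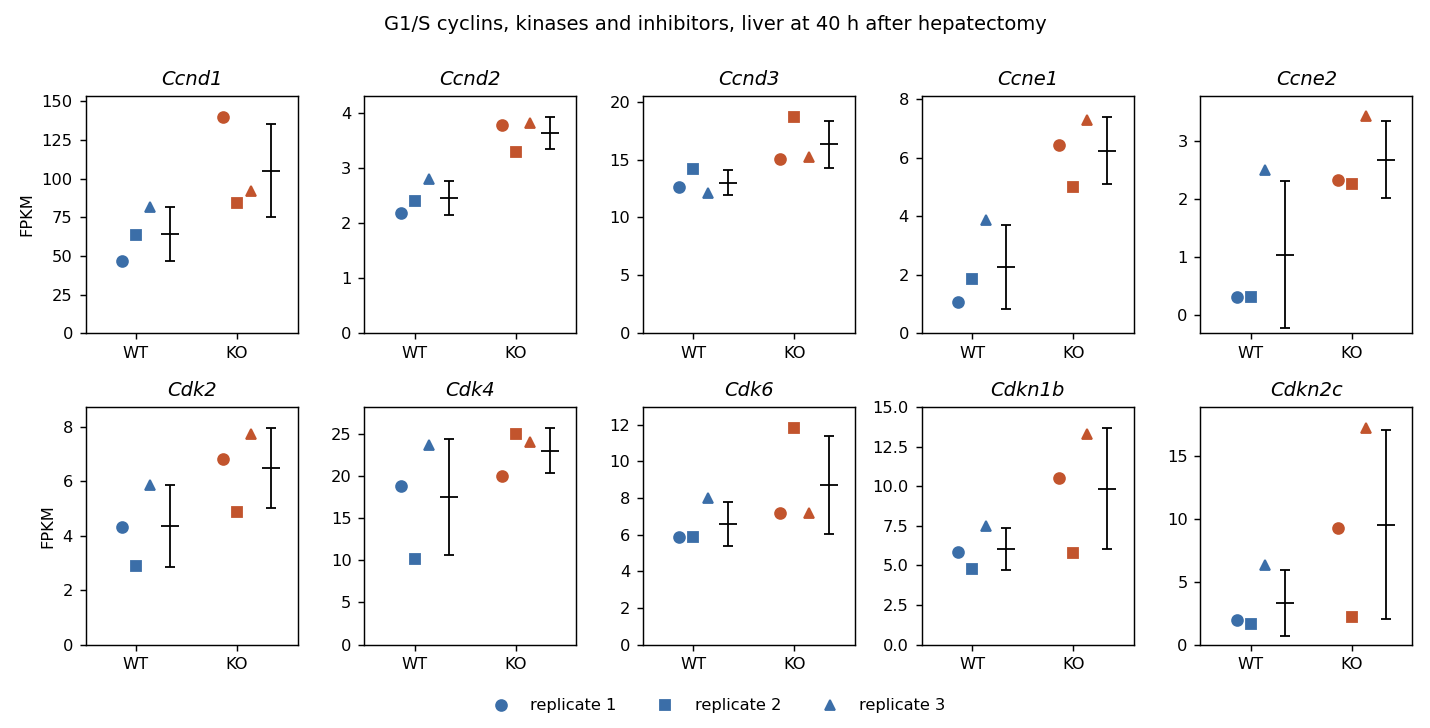
FPKM of each gene (y axis, separate scale per panel) in the WT (blue) and KO (orange) libraries, with the replicate number as the symbol and the mean ± SD (n = 3) as a black mark beside each group. The D-type cyclins and Ccne1 show no overlap between genotypes, and KO replicate 2 (square) lies among the WT values for Cdkn1b and Cdkn2c.

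Ccnd1, the cyclin D1 gene (chr7:144929931-144939925, mm10), was the most abundant of the 10 in every library. Its WT values were 46.7, 63.5 and 81.9 FPKM and its KO values 139.8, 84.3 and 91.8. The genotypes did not overlap, but KO replicate 2 was close to WT replicate 3, and the highest library exceeded the lowest 1.75-fold within WT and 1.66-fold within KO. The means were 64.0 ± 17.6 and 105 ± 30.1 FPKM (SD, n = 3 each), and the log2 difference was 0.71 (SE 0.28, 95% interval 0.03 to 1.38, limma adjusted p = 0.316). An exact permutation test gave a two-sided p of 0.1, and 3 libraries against 3 allow none smaller. With any 1 library left out the log2 difference was between 0.49, without KO replicate 1, and 0.90, without WT replicate 3. After quantile normalization it was 0.60. After median-of-ratios rescaling it was 0.55, and the genotypes overlapped.

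Ccnd2 and Ccnd3 encode cyclins D2 and D3, which are more prominent in other tissues. For Ccnd2 (chr6:127125709-127151048) the WT libraries gave 2.19, 2.40 and 2.81 FPKM and the KO libraries 3.78, 3.31 and 3.83. Both groups were tight and apart, with a log2 difference of 0.42 (SE 0.14, 95% interval 0.08 to 0.76, limma adjusted p = 0.284), although its locus overlaps 9330179D12Rik and the reads may be shared. Ccnd3 (chr17:47505051-47599688), whose locus overlaps Bysl, had 12.7, 14.2 and 12.1 FPKM in WT libraries against 15.1, 18.7 and 15.2 in KO libraries. Its log2 difference of 0.31 (SE 0.15, limma adjusted p = 0.375) was the smallest of the 10. It was 0.16 after median-of-ratios rescaling and 0.13 after quantile normalization, and the genotypes overlapped after both.

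Added up, the D-type cyclins came to 61.6, 80.1 and 96.8 FPKM for WT and 159, 106 and 111 for KO. Ccnd1 made up 75.9% to 84.6% of the sum in WT and 79.3% to 88.1% in KO. In FPKM as deposited the size of the sum did not overlap between genotypes, while its makeup did. The sums were not rescaled, and Ccnd1 itself overlapped between genotypes after median-of-ratios rescaling. Ccnd2 contributed 2.38% to 3.56% over the 6 libraries and Ccnd3 9.51% to 20.6%, with the lowest Ccnd3 share in KO replicate 1 and the highest in WT replicate 1, the libraries with the most and the least Ccnd1.

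**Figure D2:**
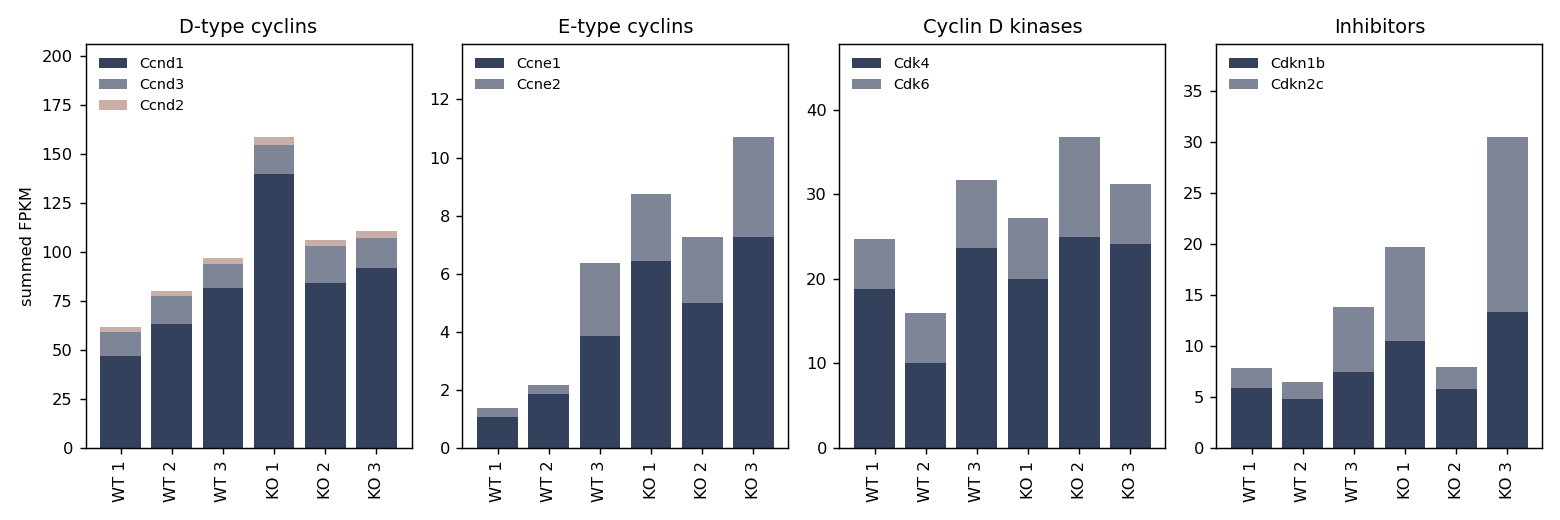
Stacked bars of summed FPKM (y axis from 0) in each library (x axis). Panels show the D-type cyclins, the E-type cyclins, the cyclin D kinases and the inhibitors Cdkn1b and Cdkn2c. In FPKM as deposited, without rescaling, every KO library exceeds every WT library for both cyclin sums. The sum of Cdkn1b and Cdkn2c in KO replicate 2, 7.98, lies within the WT range of 6.43 to 13.8. Cdkn1a is not in this sum, and alone it ranged from 8.25 to 27.8 FPKM in WT and from 40.2 to 49.6 in KO.

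Ccne1, the cyclin E1 gene (chr7:38097984-38107490), had the smallest p of the 10 and ranked 338 among all tested loci. It was at 1.06, 1.85 and 3.85 FPKM in WT livers and at 6.43, 5.01 and 7.27 in KO livers. The lowest KO library, replicate 2, exceeded the highest WT library, replicate 3, while WT libraries differed among themselves by up to 3.63-fold. The log2 difference was 1.23 (SE 0.32, 95% interval 0.47 to 1.99, limma adjusted p = 0.210, exact permutation p = 0.1). With any 1 library left out it was between 0.95 and 1.56, the lower value without WT replicate 1 and the higher without WT replicate 3.

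Ccne2, the cyclin E2 gene (chr4:11191354-11204779), shares part of its locus with Ints8. WT values were 0.315, 0.315 and 2.50 FPKM and KO values were 2.33, 2.26 and 3.43. WT replicates 1 and 2 were low, and WT replicate 3 was inside the KO range. The log2 difference was 0.997 (SE 0.40, 95% interval 0.04 to 1.96, limma adjusted p = 0.318, exact permutation p = 0.3), 1.47 without WT replicate 3 and 1.83 with a pseudocount of 0.1 in place of 1.

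The E-type sum was 1.38, 2.17 and 6.36 FPKM for WT and 8.76, 7.27 and 10.7 for KO, with Ccne1 between 60.6% and 85.5% of it. The D sum divided by the E sum gave 44.8, 36.9 and 15.2 for WT and 18.1, 14.6 and 10.4 for KO. WT replicates 1 and 2 had the highest ratios, and WT replicate 3 was within the KO range. The E sum per unit of Cdk2 was 0.318, 0.756 and 1.08 in the WT livers and 1.28, 1.49 and 1.38 in the KO livers, without overlap. These sums and ratios carry no test.

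The kinase genes had smaller differences than the E-type cyclins. Cdk4 (chr10:127063603-127067282), the main partner of cyclin D1, had WT values of 18.8, 10.1 and 23.7 FPKM and KO values of 20.02, 24.9 and 24.1. WT replicate 2 stood low and the other 5 libraries lay between 18.8 and 24.9. The log2 difference of 0.45 (SE 0.30, 95% interval -0.27 to 1.16, limma adjusted p = 0.491) was 0.11 without WT replicate 2 and 0.69 without WT replicate 3. It was 0.30 after median-of-ratios rescaling and 0.29 after quantile normalization.

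Cdk6 (chr5:3344312-3522225), the other cyclin D partner, measured 5.90, 5.86 and 7.99 FPKM for WT and 7.21, 11.8 and 7.16 for KO. KO replicate 2 was the highest library and the other KO libraries lay within the WT range (log2 difference 0.34, SE 0.22, 95% interval -0.20 to 0.87, limma adjusted p = 0.487). The difference was 0.12 without KO replicate 2, 0.20 after median-of-ratios rescaling and 0.16 after quantile normalization. Cdk4 supplied 63.2% to 77.1% of the FPKM of both kinases together. The D-type cyclins summed to between 2.50 and 5.02 times the FPKM of Cdk4 and Cdk6 in WT, and to between 2.89 and 5.83 times in KO.

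Cdk2 (chr10:128697939-128705051), the partner of cyclin E, was found at 4.33, 2.87 and 5.88 FPKM in WT livers and 6.83, 4.87 and 7.74 in KO livers. WT replicate 3 exceeded KO replicate 2, so the genotypes overlapped. The log2 difference was 0.50 (SE 0.25, 95% interval -0.10 to 1.11, limma adjusted p = 0.383), and 0.28 without WT replicate 2.

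Cdkn1b (chr6:134920401-134925525), the p27 gene, had 5.87, 4.79 and 7.46 FPKM for WT and 10.5, 5.78 and 13.3 for KO. KO replicates 1 and 3 were above all WT libraries and KO replicate 2 was within the WT range. The log2 difference was 0.58 (SE 0.30, 95% interval -0.13 to 1.28, limma adjusted p = 0.387, exact permutation p = 0.3), 0.88 without KO replicate 2 and 0.34 without KO replicate 3.

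Cdkn2c (chr4:109660876-109665372), the p18 gene, varied most of the 10 within KO. WT livers were at 1.96, 1.64 and 6.34 FPKM and KO livers at 9.23, 2.19 and 17.2, a range of 3.88-fold within WT and 7.83-fold within KO. WT replicate 3 was above KO replicate 2, so the genotypes overlapped. The log2 difference was 1.12 (SE 0.68, 95% interval -0.49 to 2.74, limma adjusted p = 0.449), 1.82 without KO replicate 2 and 0.57 without KO replicate 3. Cdkn2c made up 25.1%, 25.4% and 45.9% of the sum of Cdkn1b and Cdkn2c in WT livers and 46.8%, 27.5% and 56.4% in KO livers. In this share KO replicate 2 was nearest to WT replicates 1 and 2. The E sum per unit of Cdkn1b was 0.234, 0.452 and 0.851 for WT and 0.834, 1.26 and 0.804 for KO, highest in KO replicate 2, and the genotypes overlapped.

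**Figure D3:**
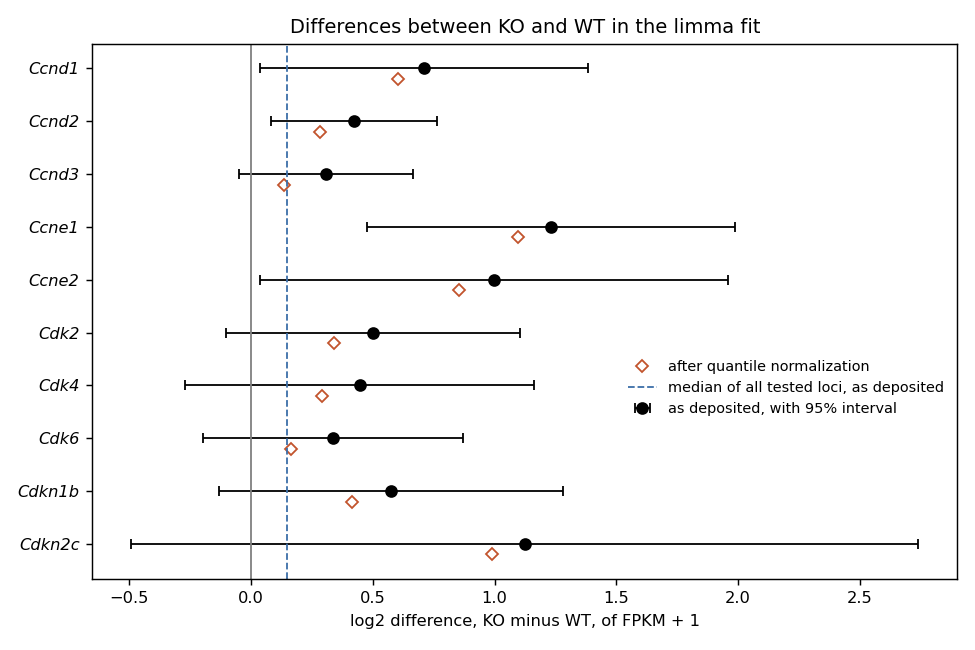
Log2 difference of FPKM + 1, KO minus WT (x axis), for each gene (y axis), as deposited with its 95% interval (black) and after quantile normalization (open diamonds). All 10 black points are above 0 and above the dashed median of all tested loci, 0.15, and 6 of the 10 intervals include 0.

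Inhibitor genes outside the set were read beside them, and of 6 such genes 3 were tested and 0 passed. Cdkn1a, which encodes the Cip/Kip inhibitor p21 and is a p53 target, had WT levels of 8.25, 27.8 and 16.3 FPKM and KO levels of 43.1, 40.2 and 49.6. KO replicate 2 was among the high libraries here, unlike for Cdkn1b and Cdkn2c, and the log2 difference was 1.44 (SE 0.39, limma adjusted p = 0.220). Cdkn2d, the gene of the Ink4 inhibitor p19, was at 0.747, 0.831 and 1.31 for WT and 10.5, 1.45 and 14.7 for KO. Cdkn3, a CDK phosphatase gene, was listed at 0 in WT replicate 1 and at 0.130 and 0.129 in WT replicates 2 and 3, while KO libraries had 7.46, 0.151 and 14.5. Cdkn3 passed the filter on low values only through KO replicates 1 and 3, the WT mean of Cdkn2d was 0.962, and for both genes KO replicate 2 was just above WT. Cdkn1c, Cdkn2a and Cdkn2b were below the filter.

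The libraries did not rank the 10 genes alike. WT replicate 3 was the highest WT library for 9 of them, all but Ccnd3, and WT replicate 2 was the lowest of the 6 libraries for 6. KO replicate 2 was the lowest KO library for 7 genes and the highest for Ccnd3, Cdk4 and Cdk6. Over the 6 libraries Pearson correlations of log2(FPKM + 1) between the 45 pairs of genes ran from -0.01 (Ccnd3 with Cdkn2c) to 0.98, with a median of 0.68. Cdkn1b with Cdkn2c and Ccnd2 with Ccne1 both had 0.98. They describe 6 points that share library and genotype.

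Lists of later cell cycle genes were scored per library, as the median over the genes of log2(FPKM + 1) centred on each gene. The 30 genes of S phase entry scored -0.69, -1.22 and 0.63 in WT livers and 0.66, -0.27 and 0.69 in KO livers. The 18 mitosis genes scored -1.31, -1.39 and -0.41 in WT livers and 1.94, -1.40 and 2.62 in KO livers. Mitosis genes of KO replicate 2 were thus as low as in WT replicates 1 and 2, while its Ccnd1 and Ccne1, as deposited, were above every WT library. After median-of-ratios rescaling Ccnd1 overlapped between genotypes and Ccne1 did not. WT replicate 3 was high for S phase genes, and it was also the highest WT library for 9 of the 10 genes, all but Ccnd3. The part of these patterns in the differences of the 10 genes was not tested.

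**Figure D4:**
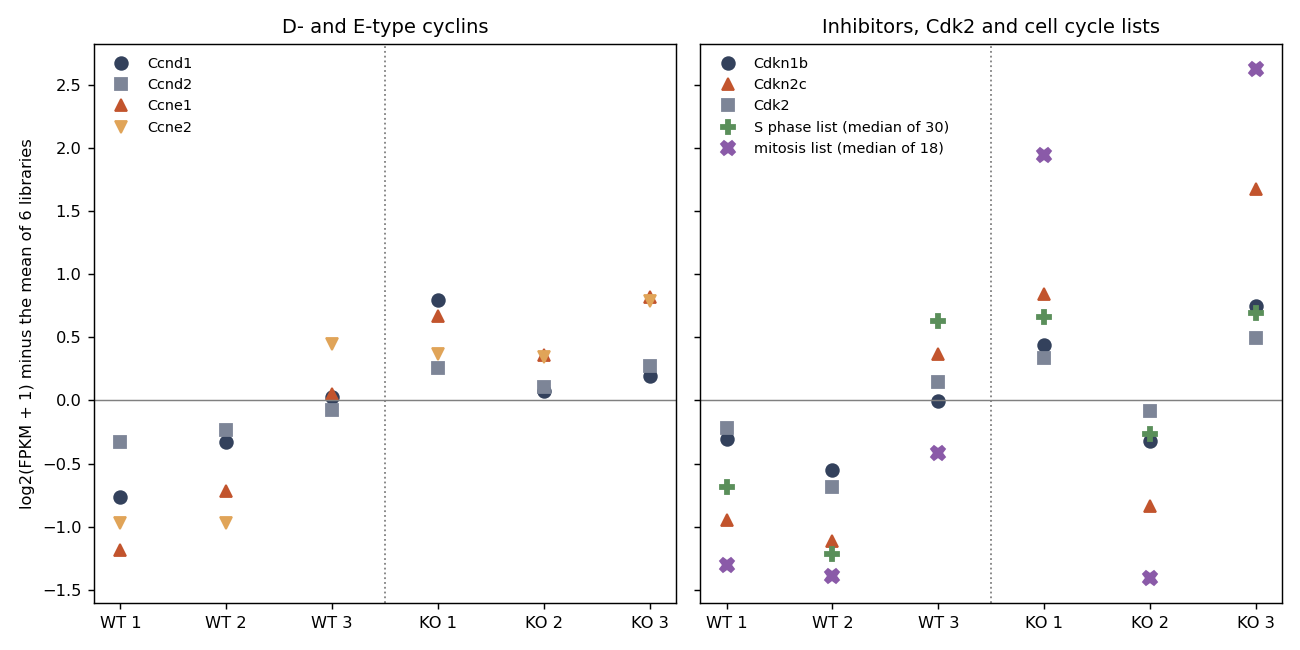
Log2(FPKM + 1) minus the mean of the 6 libraries (y axis) for Ccnd1, Ccnd2, Ccne1 and Ccne2 (left), and for Cdkn1b, Cdkn2c, Cdk2 and the S phase and mitosis scores (right), with WT libraries left and KO libraries right of the dotted line. In KO replicate 2 the 4 cyclins are above 0, and Cdkn1b, Cdkn2c and the mitosis score, -1.40, are below it.

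Loci whose values followed a cyclin most closely were sought among 10887 tested loci with a single symbol. Ccnd1 was followed by Strn3, Vps29 and Xk (Pearson r = 0.9998, 0.996 and 0.994 over 6 libraries). Ccne1 was followed by Pxdn, Lrba and Cct2 (r = 0.997, 0.996 and 0.995). For Cdkn2c, added after its values were seen, the closest was Cdca5, which encodes the cohesin protector sororin (r = 0.999), at 0.572, 0.304 and 2.24 FPKM for WT and 3.74, 0.606 and 6.54 for KO. Among so many loci such coefficients are easily reached with 6 points.

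Around the 10 genes, 9 lists of pathway genes were counted, and 0 of their tested members passed the limma threshold in either direction, where 0.119% of all loci did. Without KO replicate 2, 24 members were called, all higher in KO and 16 of them in the mitosis list, where 2.21% of all loci were called. The mitosis list had a median log2 difference of 2.11 over 18 genes, all above 0 (69.7% of loci), with 1 at an unadjusted p under 0.05 (15.2% of loci). Of the 18, 8 had a WT mean below 1 FPKM and entered the test through KO libraries, so the counts and the median of this list are a description only. Ube2c, the ubiquitin-conjugating enzyme gene of the anaphase-promoting complex, had that p, at 4.51, 1.22 and 4.49 FPKM for WT and 65.2, 3.08 and 117 for KO. The 30 S phase genes had a median of 0.78, with 29 above 0 (69.7% of loci) and 3 at an unadjusted p under 0.05 and higher in KO, a share close to the 11.2% of all loci. Of these 3, Orc6, an origin recognition subunit gene, averaged 2.39 ± 1.42 and 5.01 ± 1.27 FPKM for WT and KO (SD, n = 3 each), and Fen1, the flap endonuclease gene, 6.15 ± 5.99 and 14.1 ± 4.56. For both, WT replicate 3 was within the KO range.

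Pocket proteins, E2F and DP factors, which link D-type to E-type cyclins, had a median of 0.29 over 13 genes. Of the 13, 2 had a WT mean below 1 FPKM, E2f2 and E2f7, and entered the test through KO libraries. Rb1, the retinoblastoma gene, averaged 2.65 ± 0.826 and 2.94 ± 0.852 FPKM for WT and KO (log2 difference 0.11, SE 0.25), and E2f1, an activating E2F gene, 3.36 ± 3.29 and 5.62 ± 1.04. Rbl1, which encodes the pocket protein p107, was at 1.91, 1.57 and 4.54 for WT and 8.43, 3.05 and 10.3 for KO. The repressor genes E2f7 and E2f8 had differences of opposite sign, and neither passed the test. E2f7 had 0.0671, 0.336 and 0.278 FPKM for WT and 3.10, 0.375 and 4.02 for KO (log2 difference 1.32, limma adjusted p = 0.301) and passed the filter only through KO. E2f8 had 6.52, 4.72 and 8.14 against 4.75, 3.08 and 4.50 (log2 difference -0.53, limma adjusted p = 0.328).

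Of 25 growth factor and transcription factor inputs to cyclin D1, 21 were tested, with a median of 0.10, and 5 were higher and 1 lower in KO at an unadjusted p under 0.05, where 15.2% of all loci had such a p and 11.2% had it with a higher value in KO. Egfr, the receptor of EGF-type growth factors, had 215, 174 and 201 FPKM for WT and 121, 52.4 and 90.9 for KO, without overlap (log2 difference -1.22, SE 0.31, limma adjusted p = 0.208). Myc, a transcription factor gene of early regeneration, had 1.37, 1.88 and 2.04 against 2.68, 9.53 and 4.40 (log2 difference 1.11, SE 0.37, limma adjusted p = 0.282). It was highest in KO replicate 2, the library with the highest Cdk4 and Cdk6. WT replicate 3 had 23.7 FPKM of Cdk4 with Myc at 2.04, and KO replicate 1 had 20.02 with Myc at 2.68. A link between Myc and these kinases was not tested. Wwtr1, which encodes the Hippo pathway coactivator TAZ, averaged 5.08 ± 0.487 and 7.68 ± 0.343 (log2 difference 0.52, limma adjusted p = 0.207), and Tgfbr2, a receptor gene for the growth inhibitor TGF-beta, 4.60 ± 0.660 and 6.73 ± 1.05. The receptor gene Met averaged 17.5 ± 2.90 and 17.9 ± 1.74, and Hgf, its ligand gene, 13.3 ± 1.09 and 13.1 ± 5.18.

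Genes acting on these cyclins and kinases after transcription had a median of 0.66 for 8 genes of CDK activation and phosphorylation. It was 0.06 for 14 genes of cyclin and p27 turnover. Of the 8, 2 had a WT mean below 1 FPKM, Cdc25b (0.327) and Cdc25c (0.105). Both entered the test through KO libraries, so the median of 0.66 is a description only. Wee1 and Pkmyt1, kinase genes that hold CDKs inactive, had means of 2.69 ± 2.34 (WT) and 5.83 ± 2.13 (KO) FPKM for Wee1, and of 1.63 ± 1.64 (WT) and 4.92 ± 2.64 (KO) for Pkmyt1. Fbxo31, an F-box gene linked to cyclin D1 degradation, was at 8.74, 7.34 and 6.57 for WT and 4.37, 5.57 and 4.45 for KO, without overlap (log2 difference -0.56, SE 0.16, limma adjusted p = 0.234). Cks2, a CDK-binding subunit gene, was at 18.1, 7.38 and 15.3 against 24.5, 21.4 and 51.6. Skp2, the F-box gene for p27, was at 0.796, 0.762 and 2.17 against 2.34, 1.32 and 2.30, with WT replicate 3 inside the KO range.

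Other cyclins had a median of 0.34 over 16 tested genes and other CDKs 0.20 over 14, beside 0.54 for the 10 genes. Among them, 2 cyclins and 1 CDK had a WT mean below 1 FPKM and entered the test through KO libraries. Ccng1, a p53 target with a cyclin fold, was at 8.68, 9.10 and 18.7 FPKM for WT and 42.1, 26.5 and 42.1 for KO, without overlap (log2 difference 1.57, SE 0.33, limma adjusted p = 0.164). Ccnl1, the gene of a splicing-related cyclin, was at 11.03, 11.1 and 9.75 against 16.1, 13.6 and 16.2 (log2 difference 0.49, limma adjusted p = 0.238). Cdk1, the mitotic kinase gene, was at 0.833, 0.445 and 3.51 against 15.1, 0.745 and 24.4, so KO replicates 1 and 3 stood above the other 4 libraries.

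In whole liver, fewer cells of a type and less RNA per cell cannot be told apart, so markers of other liver cells are given beside these results. Macrophage and Kupffer markers (7 of 7 found and tested) summed to 67.5 to 92.7 FPKM (WT) and 75.3 to 129 FPKM (KO). Sinusoidal endothelial markers (6 of 6 tested) summed to 37.6 to 58.7 (WT) and 38.7 to 60.8 (KO), and stellate and fibroblast markers (7 of 7 tested) to 117 to 122 (WT) and 84.8 to 147 (KO). Cholangiocyte markers (2 of 6 tested) summed to 12.1 to 21.1 (WT) and 12.5 to 29.0 (KO), neutrophil markers (4 of 5 found, 3 tested) to 11.9 to 35.9 (WT) and 14.2 to 29.5 (KO) and erythroid markers (2 of 5 tested) to 4.29 to 12.3 (WT) and 8.35 to 11.6 (KO). T and NK cell markers summed to 0.495 to 1.13 (WT) and 0.175 to 1.05 (KO) and B and plasma cell markers to 0.975 to 1.66 (WT) and 0.588 to 1.41 (KO), with 0 of 5 tested in each. All these summed ranges overlapped between genotypes, none of the markers found was at 0 in all 6 libraries, and 0 were called. A sum mostly follows its most abundant gene, such as the stellate marker Dcn or the cholangiocyte marker Spp1. They averaged 75.3 and 15.5 FPKM over the 6 libraries. Overlap of the sums therefore does not show that cell content was alike. Every KO library was above every WT library for 1 of 7 macrophage, 1 of 7 stellate and 1 of 2 erythroid markers tested. None of the other marker groups had such a gene among those tested, and 16.7% of all loci separated in this way. The macrophage gene Marco was at 9.84, 8.99 and 5.11 FPKM for WT against 16.9, 27.6 and 11.8 for KO (limma adjusted p = 0.264). The stellate cell gene Reln was at 8.88, 9.51 and 10.5 against 16.7, 21.9 and 14.6 (limma adjusted p = 0.179). For the globin gene Hba-a1 the more abundant of 2 loci was used. It had 0.00921, 0.00687 and 0.0321 FPKM for WT against 2.75, 3.15 and 0.332 for KO (limma adjusted p = 0.251). Hba-a1 passed the filter on low values only through KO libraries. Another globin gene, Hbb-b1, was below the filter, at 4.32 in WT replicate 2 and at 0 in all other libraries. The hepatocyte gene Serpina1c, 1 of 6 tested, was lower in every KO library (limma adjusted p = 0.402). Among markers below the filter, the cholangiocyte gene Sox9 was at 0.920, 1.83 and 0.744 against 0.0621, 0.371 and 0.242. Csf3r was higher in every KO library, and Nkg7 and Klrb1c were lower in every KO library. For genes below the filter, and for lower values in KO, no share of all loci was counted. The part of these cells in the differences of the 10 genes was not tested.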

How the data were processed

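The authors' deposited table holds, per the file headers, FPKM for each gene locus and library at mm10 positions (printed 1-based). It was used for the 6 libraries at 40 h. The submitters' processing notes name TopHat, edgeR, mm9 and mm10 without roles. The 312 loci marked LOWDATA (of 23847) were left out, and values of 0.001 were read as 0. FPKM depends on library composition and on how reads of overlapping loci are shared out. Absolute depth is unknown: ratios of low values (under 0.3 FPKM) gave depths of 0.844 to 1.21 relative to WT replicate 1.

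Values were tested as log2(FPKM + 1), which understates changes of low genes. Loci with a mean of at least 1 FPKM over the 6 libraries were fitted in limma 3.58.1 (R 4.3.3; genotype only, eBayes with trend, two-sided, Benjamini-Hochberg over all tested loci, called at an adjusted p under 0.05). The code was tested on simulated data. Permutation tests enumerated all 20 assignments. The members and lists were chosen with earlier results of these data known. Named genes are the 10, Arid1a, genes among the 4 of smallest p in each list, and the 3 loci most like Ccnd1 and Ccne1; Rb1, E2f1, Met, Hgf, Cdca5 and the single cell type markers lie outside this rule and were picked after their values were seen. Alternatives were a pseudocount of 0.1, no filter, median-of-ratios and quantile scaling, no trend, a replicate block and each library left out.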

Additional observations from a re-analysis of the deposited data

How the results depend on the processing

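None of the 10 genes changed direction or passed the threshold under any of 12 alternatives, with log2 differences from 0.11 to 1.83 and limma adjusted p from 0.104 to 0.838. Deviations from the genotype mean correlated at -0.084, 0.155 and 0.164 between WT and KO libraries of numbers 1, 2 and 3. KO replicates 2 and 3 correlated best with the WT library of their own number, and KO replicate 1 with WT replicate 3 (0.175). With 3 libraries per genotype such values cannot decide whether the numbers pair the libraries. With the number as a replicate block, 47 loci were called, 10 higher and 37 lower in KO. In that fit 5 of the 10 genes had an unadjusted limma p under 0.05, as had 1656 of 10956 loci. They were Ccne1, Ccne2, Cdk2, Cdkn1b and Cdkn2c.

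The 13 loci called became 6 with no filter on low values, and ranged from 0 to 242 with 1 library left out. They were 0 without WT replicate 1 (940 at an unadjusted p under 0.05 in limma), 2 without either WT replicate 2 or KO replicate 3, 3 without WT replicate 3 and 242 without KO replicate 2. The cause was not tested. Calls among the members of the pathway lists ranged from 0 to 24, with all 24 in the fit that leaves out KO replicate 2. Of 415 results for other named genes, 404 kept direction and side of the threshold and 11, all in that same fit, passed it. Depth limits the lowest values most, Ccne2 of WT replicates 1 and 2 among them.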
